A study of Mus musculus with 16 samples.

Results

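The 5 mature microRNAs miR-17-5p, miR-34a-5p, miR-96-5p, miR-125b-5p and miR-150-5p (MIMAT0000649, MIMAT0000542, MIMAT0000541, MIMAT0000136 and MIMAT0000160) were followed in sorted splenic dendritic cells that lacked XBP1 or both IRE1 and XBP1. They were chosen because their precursors are reported substrates of the IRE1 ribonuclease, not for their values in these data, and they are 5 of the 853 mature microRNAs counted. Small RNA libraries came from conventional type 1 dendritic cells (cDC1s), the subset specialised in cross-presenting antigen to CD8 T cells, of mouse spleen on the strain given as C57BL6. There were 16 libraries in 4 groups of 4. The groups were cells deficient in both Ire1 and Xbp1 (labelled Xbp1-Ire1 KO, here compound-deficient), cells deficient in Xbp1 alone (Xbp1 KO), and a wild type for each of these lines, the compound-line wild type and the Xbp1-line wild type. The wild types share the genotype label WT and are told apart by the sample descriptions. The sources used here do not give the age and sex of the mice, the exons deleted or the promoter that drives the deletion.

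IRE1 is a sensor of unfolded proteins in the membrane of the endoplasmic reticulum. Its cytosolic ribonuclease removes an intron from Xbp1 mRNA, which yields the active transcription factor, and it can also cleave other RNAs at stem-loops, a process called regulated IRE1-dependent decay. Precursor hairpins of miR-17, miR-34a, miR-96 and miR-125b were reported as cleaved by IRE1 in stressed mouse fibroblasts, which relieved repression of the mRNA of the protease caspase-2, and miR-150 was reported as an IRE1 target in activated fibroblasts. Loss of XBP1 in cDC1s is known to leave IRE1 in place with a more active ribonuclease. The comparisons therefore ask whether the mature products of these hairpins differ when the ribonuclease is present without XBP1 and when it is lost as well. Neither the activity of IRE1 nor the messenger RNAs that were targeted are in a table of mature microRNAs, so no check of the genotypes was made.

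The mature strands are shown first, since they are what was counted. RefSeq (GRCm38.p6) held the mature strand of 4 of the 5, written 5′ to 3′ with the seed, bases 2 to 8 that pair with target mRNAs, in capitals.
miR-17-5p: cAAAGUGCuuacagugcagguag
miR-34a-5p: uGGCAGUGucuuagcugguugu
miR-96-5p: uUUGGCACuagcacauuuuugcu
miR-125b-5p: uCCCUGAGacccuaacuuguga
Each of these 4 strands has a seed of its own, so the group is a set of reported substrates and not a seed family. The strands are 22 or 23 bases long.

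IRE1 would act on the precursor, so the hairpins are shown with the counted 5p strand in capitals. Mir17 lies at chr14:115043671-115043754 on the plus strand, within an exon of the long noncoding host gene Mir17hg in GENCODE M21. Mir34a lies at chr4:150068454-150068555 on the plus strand, within an exon of the unclassified transcript Gm37795. Mir96 lies at chr6:30169446-30169551 on the minus strand and overlaps no other annotated gene. Mir125b-1 lies at chr9:41581926-41582002 on the plus strand, in an intron of the noncoding 3110039I08Rik and Gm49317 and in an exon of Gm28119. The counted miR-125b-5p has a second source hairpin, Mir125b-2 at chr16:77646273-77646343 on the plus strand, in an intron of Mir99ahg and an exon of C130023A14Rik, and the counts do not separate the 2 sources. Mir150 lies at chr7:45121757-45121821 on the plus strand and overlaps no other annotated gene.
Mir17: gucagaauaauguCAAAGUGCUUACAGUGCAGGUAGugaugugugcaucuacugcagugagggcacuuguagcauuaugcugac
Mir34a: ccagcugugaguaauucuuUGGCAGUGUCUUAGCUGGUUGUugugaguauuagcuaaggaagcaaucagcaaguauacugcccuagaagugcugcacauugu
Mir96: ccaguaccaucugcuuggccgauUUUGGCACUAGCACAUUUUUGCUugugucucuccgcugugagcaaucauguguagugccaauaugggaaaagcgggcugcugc
Mir125b-1: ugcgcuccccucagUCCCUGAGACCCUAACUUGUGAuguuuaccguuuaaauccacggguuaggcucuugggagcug

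The sense strand of these 4 hairpins was searched for CUGCAG, a core at which IRE1 cuts Xbp1 mRNA, and for the looser CNGCAGN. The looser form includes every CUGCAG followed by a base. Mir17 held 1 match to both, at bases 52 to 57 of the hairpin, and the other 3 held none. The match lies in the opposite arm, shown with the core in capitals.
miR-17-3p: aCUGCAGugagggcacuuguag
In a minimum free energy fold (RNAfold, -36.70 kcal/mol) the terminal loop of Mir17 spanned bases 42 to 45, and 1 of the 6 core bases was unpaired. Of 1005 mouse hairpins in the same table, 75 (7.46%) held CUGCAG and 127 (12.6%) held CNGCAGN. A match describes these letters only.

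Libraries held 175165 to 978134 microRNA counts in compound-deficient cells, 783372 to 1403393 in Xbp1-deficient cells, 332923 to 882108 in the compound-line wild type and 400210 to 1103001 in the Xbp1-line wild type. The summed share of the 5 microRNAs was 0.335% ± 0.0292 of all counts in compound-deficient cells and 0.399% ± 0.0232 in Xbp1-deficient cells, against 0.450% ± 0.0496 for the compound-line wild type and 0.373% ± 0.0478 for the Xbp1-line wild type (SD, n = 4). Between 87.9% and 94.6% of that share in a library was miR-150-5p. The intervals of fold changes below include the spread between libraries, whereas intervals of shares and floors cover counting error only, since reads without molecular identifiers are not independent molecules. The labels do not say whether replicates were separate mice. Apart from the 5 members, identifiers are not paired with names in the files or reference tables used here, so markers of cDC1s, of lymphocytes and of other cell types were not measured and the purity of the sort was not checked.

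Levels differed widely among the 5. They are given as CPM, counts set to a common library size after scaling by TMM, a trimmed mean that aligns libraries on most of their microRNAs. Over all 16 libraries the mean was 3570 CPM for miR-150-5p, 261 CPM for miR-17-5p, 34.7 CPM for miR-34a-5p, 25.2 CPM for miR-125b-5p and 2.10 CPM for miR-96-5p. In every library miR-150-5p had more counts than miR-17-5p, miR-17-5p more than miR-34a-5p, and miR-125b-5p more than miR-96-5p, with no overlap between these neighbours over the 16 libraries. miR-34a-5p and miR-125b-5p were not separated: miR-34a-5p had more counts in 8 of 16 libraries, in 4 of 4 Xbp1-deficient ones but in 1 of 4 of each wild type. By count, miR-150-5p ranked between 25 and 39 in its library and miR-17-5p between 80 and 101. Ligation and amplification differ between sequences, so the order is one of counted reads.

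**Figure D1:**
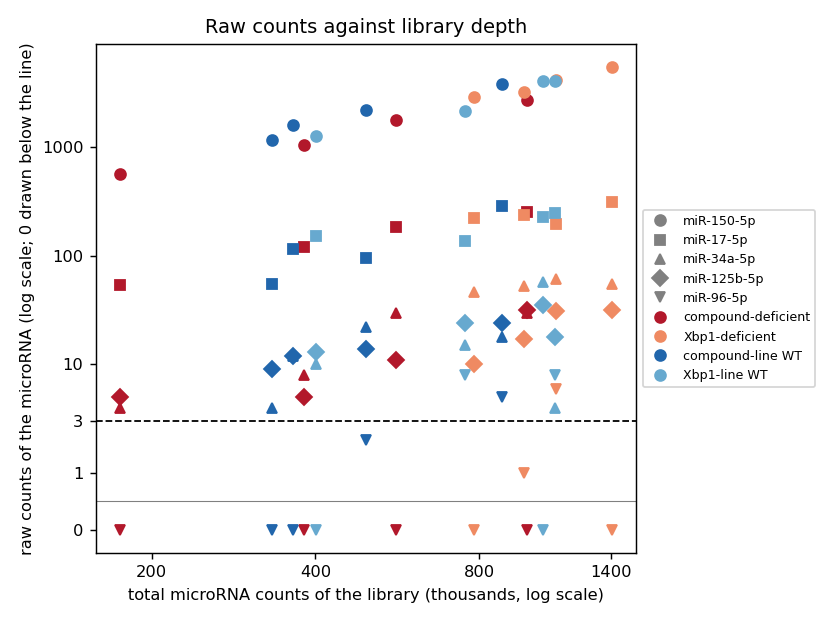
Raw counts of the 5 microRNAs (vertical, log scale, with 0 drawn under the grey line) against the total counts of the library (horizontal, log scale), coloured by group; the dashed line marks 3 counts. miR-150-5p and miR-17-5p stand at 54 counts or more in every library, whereas miR-96-5p is at 0 in 10 of 16.

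miR-150-5p, which is abundant in mature lymphocytes and represses the transcription factor Myb there, had its lowest mean in compound-deficient cells, although the lowest single library was Xbp1-line wild-type replicate 6. It stood at 2923, 2901, 3266 and 3033 CPM in compound-deficient replicates 1 to 4. In Xbp1-deficient replicates 1 to 4 it stood at 4004, 3375, 4419 and 3924 CPM. In the wild types it stood at 4387, 3784, 4091 and 3497 CPM in compound-line replicates 1 to 4 and at 3866, 3743, 2796 and 3112 CPM in Xbp1-line replicates 4, 5, 6 and 8. All 4 compound-deficient libraries lay below all 4 compound-line wild-type libraries and below all 4 Xbp1-deficient libraries. They overlapped with the Xbp1-line wild type, whose replicates 6 and 8 were as low. Counts of 574 to 5500 per library put the counting error at 1.62% to 3.01% of the mean, below the spread between libraries of 5.51% in compound-deficient cells and 9.76% to 15.1% in the other groups.

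Averages of miR-150-5p were 3031 ± 167 CPM in compound-deficient cells and 3940 ± 385 CPM in the compound-line wild type (SD, n = 4 each). The log2 fold change was -0.38 (SE 0.13, 95% interval -0.65 to -0.11), a level 0.769 times that of the wild type. Its adjusted p in edgeR's quasi-likelihood test was 0.0963 over 255 microRNAs, so it did not pass the threshold of 0.05, with an unadjusted p of 0.00868 that ranked 23 of 255. Without compound-line wild-type replicate 4 the edgeR adjusted p was 0.0425 and the value -0.46. With any other library left out it did not pass, at an edgeR adjusted p of 0.0704 (without compound-deficient replicate 2) to 0.219 (without wild-type replicate 1). Groups without overlap were found for 9.8% of all 255 microRNAs in this comparison. The call depended on the setting: with DESeq2 the adjusted p was 0.0292 and with total counts alone it was 0.0269, and both passed. It did not pass with limma voom (adjusted p 0.122), or in edgeR with no filter (0.31) or with a replicate block (0.198). Of the 20 settings other than the main one, left-out libraries included, 5 passed. Of all 255 microRNAs, 24 passed with DESeq2 and 19 with total counts alone, against 15 in edgeR with TMM. In bulk RNA of sorted cells, fewer cells that carry a microRNA and less of it per cell cannot be told apart, and the part of lymphocyte RNA in these levels was not tested.

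In Xbp1-deficient cells miR-150-5p averaged 3930 ± 429 CPM, against 3379 ± 510 CPM in their own wild type (SD, n = 4 each). The log2 fold change was 0.22 (SE 0.13, interval -0.05 to 0.49, edgeR adjusted p 0.462). The groups overlapped, and 11.8% of all microRNAs had groups without overlap in this comparison. The difference of the 2 changes, compound minus Xbp1 line, was -0.60 (SE 0.18, interval -0.98 to -0.21) and ranked 5 of 255 by p, with an edgeR adjusted p of 0.208 that did not pass. The 2 wild types themselves differed by 0.22, compound over Xbp1 line (SE 0.13, interval -0.05 to 0.49, edgeR adjusted p 0.602), with overlapping ranges, and 4.31% of all microRNAs had ranges without overlap. With all 8 wild-type libraries as control, compound-deficient cells stood at -0.27 (edgeR adjusted p 0.170). Compound-deficient cells set directly against Xbp1-deficient cells gave -0.38 (SE 0.13, interval -0.65 to -0.10, edgeR adjusted p 0.0897), a contrast in which groups did not overlap for 11.8% of all microRNAs. Mean depth was also lower in compound-deficient libraries, at 524042 counts, than in Xbp1-deficient ones, at 1065596 counts, with overlapping ranges, and with log2 total count as a covariate the value was -0.28 (edgeR adjusted p 0.439). These comparisons share libraries, so their values for miR-150-5p are not separate evidence. Relative to the median of all 255 microRNAs, the value in compound-deficient against wild-type cells was -0.42 with TMM, -0.41 with DESeq2 size factors, -0.42 with upper-quartile scaling and -0.41 with total counts alone. For compound-deficient against Xbp1-deficient cells these 4 values were -0.51, -0.50, -0.51 and -0.49. A scaling moves all microRNAs by nearly the same amount, which subtracting the median removes. The likeness of the 4 values was therefore fixed in advance and does not show that the result holds under each scaling. Without the subtraction they ran from -0.38 (TMM) to -0.66 (upper-quartile) against wild-type cells. Against Xbp1-deficient cells they ran from -0.30 (total counts alone) to -0.62 (upper-quartile).

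**Figure D2:**
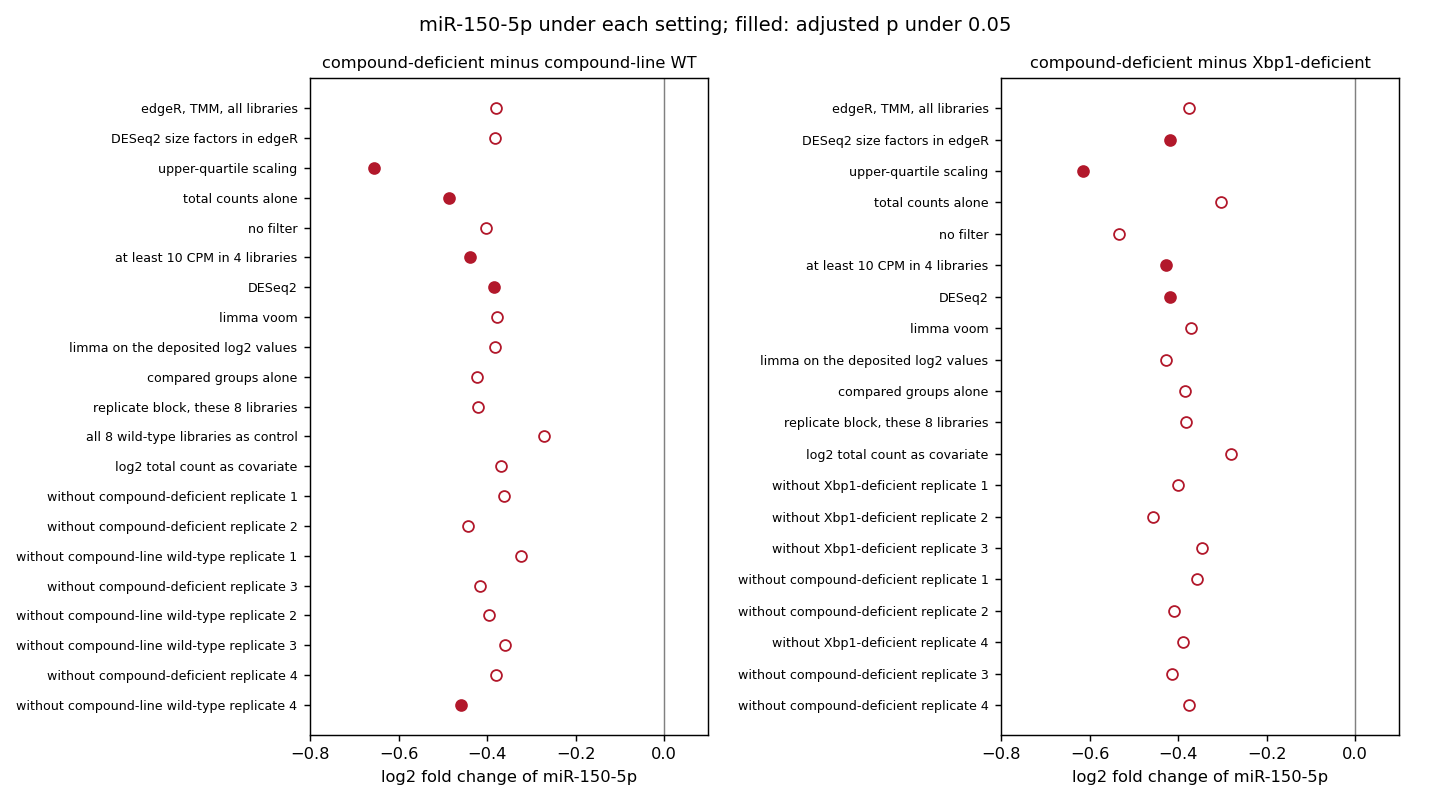
Log2 fold change of miR-150-5p (horizontal) under each setting (vertical) for compound-deficient minus compound-line wild-type cells (left) and compound-deficient minus Xbp1-deficient cells (right); filled points have an adjusted p under 0.05. Besides the top point, all 20 values on the left lie between -0.66 and -0.27 and all 19 on the right between -0.62 and -0.28, and 5 on the left and 4 on the right are filled.

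miR-34a-5p, a transcriptional target of the tumour suppressor p53 that represses cell cycle and survival genes, was highest in Xbp1-deficient cells. It stood at 32.2, 22.2, 55.1 and 21.1 CPM in compound-deficient replicates 1 to 4. In Xbp1-deficient replicates 1 to 4 it stood at 58.9, 55.1, 44.2 and 63.0 CPM. In the wild types it stood at 32.5, 38.0, 19.4 and 11.8 CPM in compound-line replicates 1 to 4 and at 3.78, 53.3, 19.5 and 24.2 CPM in replicates 4, 5, 6 and 8 of the Xbp1 line. The Xbp1-deficient libraries were alike, whereas the Xbp1-line wild type spanned a range of 14.1-fold, with replicate 5 inside the Xbp1-deficient range and replicate 4 far below the rest. Raw counts in replicate 4 were 4 of 1103001, a share of 0.000363% (exact 95% Clopper-Pearson interval 9.88e-05% to 0.000929%), against 58 of 1046657 in replicate 5, with an interval of 0.00421% to 0.00716% that lies wholly above.

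miR-34a-5p averaged 55.3 ± 8.07 CPM in Xbp1-deficient cells, against 25.2 ± 20.7 CPM in their wild type (SD, n = 4 each). The log2 fold change of 1.12 (SE 0.52, interval 0.02 to 2.21) had an unadjusted p of 0.0457 and an edgeR adjusted p of 0.299, and did not pass. The value rested on those wild-type libraries: it was 0.73 without replicate 4 and 1.89 without replicate 5, with edgeR adjusted p of 0.449 and 0.0643. In compound-deficient cells the change was 0.41 (SE 0.56, interval -0.77 to 1.58, edgeR adjusted p 0.783), at 32.7 ± 15.8 CPM against 25.4 ± 12.0 CPM in the compound-line wild type, and with a library left out it was between 0.04, without compound-deficient replicate 3, and 0.68, without wild-type replicate 2. The difference of the 2 changes was -0.71 (SE 0.77, interval -2.31 to 0.89, edgeR adjusted p 0.852), and that between the deficient genotypes was -0.70 (SE 0.53, interval -1.81 to 0.41, edgeR adjusted p 0.530). The 2.17-fold level seen in Xbp1-deficient cells lies inside the compound-deficient interval, which runs from 0.586-fold to 2.99-fold.

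miR-17-5p comes from the miR-17-92 cluster, which promotes proliferation and survival of blood cells. It stood at 273, 339, 340 and 285 CPM in compound-deficient replicates 1 to 4 and at 190, 248, 250 and 298 CPM in Xbp1-deficient replicates 1 to 4. In the wild types it stood at 312, 166, 312 and 163 CPM in compound-line replicates 1 to 4 and at 236, 210, 178 and 373 CPM in Xbp1-line replicates 4, 5, 6 and 8. The compound-line wild type held a pair of libraries inside the compound-deficient range and a pair below it, so the groups overlapped.

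The log2 fold change of miR-17-5p in compound-deficient cells was 0.37 (SE 0.26, interval -0.17 to 0.92, edgeR adjusted p 0.541), at 309 ± 35.2 CPM against 238 ± 85.3 CPM in the compound-line wild type (SD, n = 4 each). In Xbp1-deficient cells it was -0.01 (SE 0.26, interval -0.54 to 0.53, edgeR adjusted p 0.988), at 246 ± 43.9 CPM against 249 ± 85.7 CPM in the Xbp1-line wild type. Its sign turned to positive with DESeq2 size factors, at 0.02, and with upper-quartile scaling, at 0.12. The intervals leave out a rise above 1.89-fold in compound-deficient cells and above 1.44-fold in Xbp1-deficient cells. The difference of the 2 changes was 0.38 (SE 0.36, interval -0.38 to 1.15, edgeR adjusted p 0.843). Between the deficient genotypes the difference was 0.33 (SE 0.26, interval -0.21 to 0.87, edgeR adjusted p 0.541).

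miR-125b-5p, best known from stem cells and stromal cells, where it represses genes of the p53 pathway, was low in all groups. It stood at 34.4, 13.9, 20.2 and 26.4 CPM in compound-deficient replicates 1 to 4, on 5 to 32 raw counts. In Xbp1-deficient replicates 1 to 4 it stood at 29.9, 17.7, 25.7 and 13.4 CPM, on 10 to 32 counts. In the wild types it stood at 32.5, 24.2, 25.8 and 26.6 CPM in compound-line replicates 1 to 4 and at 17.0, 32.1, 31.2 and 31.5 CPM in Xbp1-line replicates 4, 5, 6 and 8. All groups overlapped, and over the 16 libraries the spread of 27.3% was close to the counting error of 26.9%.

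The log2 fold change of miR-125b-5p was -0.17 (SE 0.41, interval -1.02 to 0.69, edgeR adjusted p 0.946) in compound-deficient cells, at 23.7 ± 8.75 CPM against 27.3 ± 3.64 CPM in the compound-line wild type (SD, n = 4 each). In Xbp1-deficient cells it was -0.34 (SE 0.38, interval -1.14 to 0.46, edgeR adjusted p 0.755), at 21.7 ± 7.50 CPM against 28.0 ± 7.33 CPM in the Xbp1-line wild type. The difference of the 2 changes was 0.18 (SE 0.56, interval -0.99 to 1.34, edgeR adjusted p 0.989). Compound-deficient cells differed from Xbp1-deficient cells by 0.14 (SE 0.40, interval -0.69 to 0.97, edgeR adjusted p 0.892). With upper-quartile scaling the last 2 values turned to -0.21 and -0.10.

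miR-96-5p belongs to the miR-183 cluster and is best known from sensory cells of the inner ear and retina. It was at the limit of detection, with 30 counts in all 16 libraries and none in 10 of them. It had 0 counts in all 4 compound-deficient libraries. In Xbp1-deficient replicates 1 to 4 it had 6, 1, 0 and 0 counts. In the wild types it had 0, 2, 5 and 0 counts in compound-line replicates 1 to 4 and 8, 0, 8 and 0 counts in Xbp1-line replicates 4, 5, 6 and 8.

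A count of 0, read as up to 3 counts, allows miR-96-5p a share of up to 0.000307% to 0.00171% in single compound-deficient libraries, or 3.22 to 15.9 CPM. Those limits are above the means of 1.71 ± 2.77 CPM in Xbp1-deficient cells and 2.21 ± 2.67 CPM in the compound-line wild type (SD, n = 4), so no fold is given library by library. Summed over 4 libraries, compound-deficient cells read 0 of 2096168 counts, which allows up to 0.000143%. Xbp1-deficient cells read 7 of 4262383, the compound-line wild type 7 of 2074428 and the Xbp1-line wild type 16 of 3303053. In each group with counts only 2 of 4 libraries held any. The summed limit covers counting error only and leaves out that spread between libraries, so it does not show a loss. The filter on low counts left miR-96-5p out of the edgeR test, and without the filter it was not called among 808 microRNAs.

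Without that filter edgeR's adjusted p for miR-96-5p was 0.518 for compound-deficient against compound-line wild-type cells (unadjusted p 0.069) and 0.524 against Xbp1-deficient cells (unadjusted p 0.0882). For Xbp1-deficient against Xbp1-line wild-type cells it was 0.885, for the compound-line against the Xbp1-line wild type 1, and averaged over lines 0.423 (unadjusted p 0.0536). The fitted log2 values, -3.85 and -3.53 in the comparisons with compound-deficient cells, depend on the prior count put in place of 0 and bound nothing. An exact two-sided permutation test of mean CPM gave p = 0.429 for Xbp1-deficient cells against the 4.49 ± 5.32 CPM of the Xbp1-line wild type and p = 0.543 between the wild types, where 0.0286 was the smallest p possible, and both stood at 0.543 after Benjamini-Hochberg adjustment over 4 comparisons. For the comparisons with compound-deficient cells that test carried no information, because with 6 of 8 libraries at 0 its smallest possible p was 0.429.

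**Figure D3:**
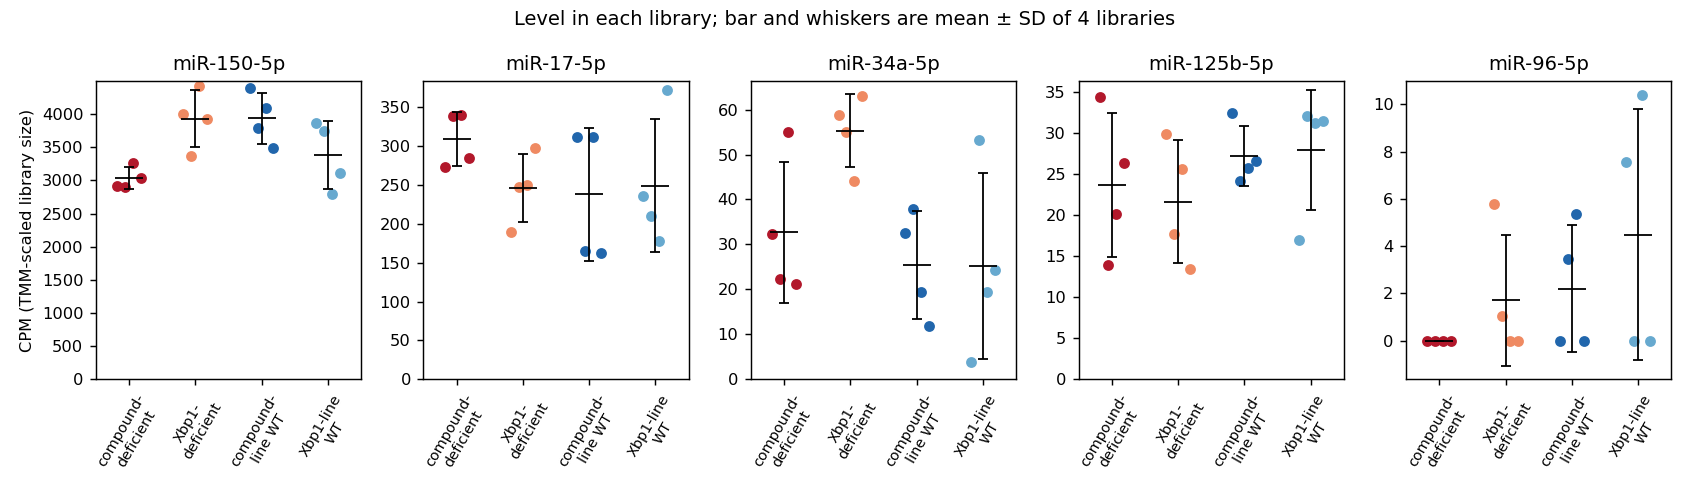
CPM (vertical, a linear scale of its own in each panel) of the 5 microRNAs in each library, by group; horizontal bars and whiskers are the mean and SD of 4 libraries. The compound-deficient points of miR-150-5p, at 2901 to 3266 CPM, lie below all compound-line wild-type and Xbp1-deficient points, and the groups compared overlap in the other 4 panels.

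Counted together, 0 of the 4 tested members passed in edgeR in any of the 6 comparisons. For Xbp1-deficient against Xbp1-line wild-type cells, 2.35% of all 255 microRNAs passed in either direction. For compound-deficient against compound-line wild-type cells 5.88% passed, and for compound-deficient against Xbp1-deficient cells 7.45%. For the difference of the 2 changes 0% passed, with 26 microRNAs at an unadjusted p under 0.05, 1 called by DESeq2 and 0 by limma voom. For the compound-line against the Xbp1-line wild type 0% passed, with 24 at an unadjusted p under 0.05, 4 called by DESeq2 and 0 by limma voom. Among 4 members, shares of this size amount to less than 1 call, so the count of 0 does not set the members apart from the rest. At an unadjusted p under 0.05 in edgeR there was miR-34a-5p in Xbp1-deficient cells and miR-150-5p in the 3 comparisons with compound-deficient cells. There were 0 members between the wild types or averaged over lines. Of all 255 microRNAs, 40 were under that limit in the Xbp1 line and 51 in the compound line. Between the deficient genotypes 44 were, and averaged over lines 55. DESeq2 called 1 member, miR-150-5p, in compound-deficient cells against the compound-line wild type and against Xbp1-deficient cells, and 0 elsewhere. In these 2 comparisons it called 24 and 32 of all 255 microRNAs, against 15 and 19 in edgeR. Limma voom called 0 members in each comparison.

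In both lines 2 of the 4 tested members had a positive and 2 a negative log2 fold change. The split in the Xbp1 line rests on miR-17-5p at -0.009, whose sign turned in 9 of 11 other settings. The direction was shared by the lines for miR-34a-5p, positive in both, and for miR-125b-5p, negative in both, whereas miR-150-5p was positive in Xbp1-deficient and negative in compound-deficient cells. The median of the 4 was 0.10 in Xbp1-deficient cells, beside -0.065 for all 255 microRNAs, and 0.10 in compound-deficient cells, beside 0.04 for all. For the difference of the 2 changes the medians were -0.21 for the members and 0.03 for all. Averaged over both lines, the deficient genotypes against the wild types, where 7.45% of all microRNAs passed, gave 0.76 (SE 0.38, interval -0.04 to 1.56) for miR-34a-5p, 0.18 (SE 0.18, interval -0.20 to 0.56) for miR-17-5p, -0.25 (SE 0.28, interval -0.84 to 0.33) for miR-125b-5p and -0.08 (SE 0.09, interval -0.27 to 0.11) for miR-150-5p. The smallest edgeR adjusted p among these 4 was 0.269, for miR-34a-5p.

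**Figure D4:**
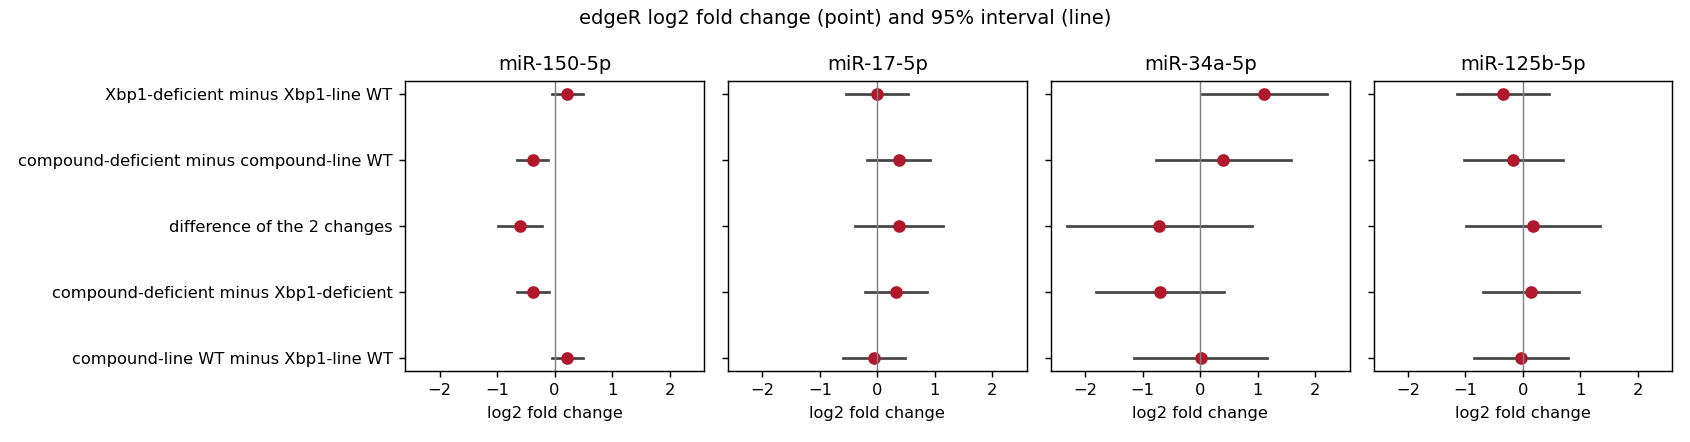
Log2 fold change (horizontal, point) with its 95% interval (line) of the 4 tested microRNAs in 5 comparisons (vertical), from 1 edgeR fit of all 16 libraries. The intervals of miR-150-5p are the narrowest, with an SE of 0.13 in comparisons of 2 groups, and those of miR-34a-5p the widest, with SE of 0.52 to 0.56.

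The microRNAs whose log2 CPM followed a member most closely over the 16 libraries are given by identifier, as a description, since libraries share their depth and scaling. For miR-150-5p these were MIMAT0000580 (Pearson's r of 0.71) and MIMAT0003727 (0.61), and for miR-17-5p MIMAT0004524 (0.80) and MIMAT0004522 (0.77). For miR-34a-5p they were MIMAT0004583 (0.55) and MIMAT0017055 (0.48), and for miR-125b-5p MIMAT0004521 (0.67) and MIMAT0000659 (0.62). These microRNAs were picked for a high r, and no background for such picks is given. Pairs of the 4 tested members were not picked by their r. Pearson's r between any such pair lay between -0.21, for miR-17-5p with miR-125b-5p, and 0.12, for miR-34a-5p with miR-150-5p. The picked and unpicked values therefore cannot be set against each other.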

How the data were processed

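Bowtie 1.1.2, cutadapt 1.8.1, limma 3.42.2 and FastQC 0.11.3 stand in the submitters' processing notes, as do the builds mm10 and GRCm38, all with no role or order stated. The authors deposited raw counts of 853 mature microRNAs and log2 values of 473, which equal log2 CPM on TMM-scaled library sizes to within 4.8e-14 for the 5 members. The sources used here do not give the mismatches allowed, the microRNA release or the handling of reads shared by similar microRNAs.

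Tests were run with edgeR 4.0.16 (R 4.3.3): TMM, filterByExpr with a minimum count of 10, and 1 quasi-likelihood fit of 4 group means over 16 libraries, two-sided, with Benjamini-Hochberg adjustment over 255 microRNAs. Each SE was taken from the log2 fold change and its F statistic. A member below the filter had an exact permutation test. Replicates differed by more than counting noise (smallest chi-square per degree of freedom 15.7). The edgeR steps were also run on simulated counts with 1 common spread for all microRNAs, and no result here rests on that run. Fitted spreads of the tested members were not alike, from 14.9% for miR-150-5p to 49% for miR-34a-5p.

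Members, lists and tests were chosen with earlier results of these data known. Names were given by rule for the members, their other arms, cluster partners, seed relatives, further reported substrates, cell type markers and the 2 microRNAs most like each tested member. The names of the 5 members came with their identifiers from the rule that chose them; 0 of 853 identifiers matched the reference tables, so the other lists got no values. Alternatives were DESeq2 1.42.0, limma 3.58.1 (voom, and the deposited log2 values), 3 scalings, 2 filters, the compared groups alone, all wild types as control, a replicate block, log2 total count as a covariate, and each library left out with the tested microRNAs kept. Hairpins were folded with RNAfold 2.7.2.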

Additional observations from a re-analysis of the deposited data

Results flagged for a closer look

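A single library stood apart from the other 3 of its group in 1 of 20 groups of values, the 5 microRNAs in 4 groups each. Among the 20, miR-96-5p in compound-deficient cells had 0 counts in all 4 libraries and could not be tested. In replicate 4 of the Xbp1-line wild type, miR-125b-5p was at 17.0 CPM on 18 counts, whereas replicates 5, 6 and 8 held 31.2 to 32.1 CPM. The gap spans 0.935 of that group's range in log2 CPM, above Dixon's 95% critical value for 4 samples, which chance passes in about 1 of 20 groups. The same library had the lowest miR-34a-5p of all 16, at 3.78 CPM.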

How the results depend on the processing

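No member was called in the Xbp1 line, between the wild types or averaged over lines under any setting. For compound-deficient against wild-type cells 1 member, miR-150-5p, was called with upper-quartile scaling, total counts alone, 10 CPM in 4 libraries and DESeq2 (log2 fold changes -0.66, -0.49, -0.44 and -0.38), and 0 to 1 with a library left out, 1 without wild-type replicate 4 (-0.46, adjusted p 0.0425). Against Xbp1-deficient cells 1 was called with DESeq2 size factors, upper-quartile scaling, 10 CPM in 4 libraries and DESeq2 (-0.42, -0.62, -0.43 and -0.42), and for the difference of the changes 1 with upper-quartile scaling (-0.99, adjusted p 0.0178). Upper-quartile scaling moved the median of all microRNAs by -0.28, -0.24 and -0.39 in these 3 comparisons, by 0.12 in the Xbp1 line and by 0.15 between the wild types; total counts alone moved it by -0.12 in the compound line, -0.11 in the Xbp1 line and -0.11 averaged over lines. The split of calls into higher and lower was 3 and 21 with upper-quartile scaling and 8 and 11 with total counts in the compound line, against 9 and 6, and 4 and 22, 14 and 1, and with DESeq2 size factors 12 and 12 between the deficient genotypes, against 13 and 6. It was 2 and 3 with upper-quartile scaling and 2 and 5 with DESeq2 size factors in the Xbp1 line, against 1 and 5, and 7 and 18 or, with total counts, 7 and 20 averaged over lines, against 8 and 11. The cause was not tested.

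Same-numbered samples did not pair (correlations -0.24 to 0.31 in the compound line and -0.08 to 0.14 between the deficient genotypes, with 3 and 2 of 8 samples closest to their own number). With the replicate block 0 members passed, with miR-150-5p at -0.42 (adjusted p 0.198) and -0.38 (adjusted p 0.112). Calls in all were 4 and 19, against 9 and 8 for these samples unblocked.

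Signs turned in uncalled values near 0. miR-17-5p in Xbp1-deficient cells was at 0.023 with DESeq2 size factors, 0.12 with upper-quartile scaling, 0.022 with no filter, 0.002 with 10 CPM in 4 libraries, 0.026 with DESeq2, 0.069 with voom, 0.095 on deposited log2 values, 0.016 with all wild types and 0.039 with the depth covariate, and at -0.14 to 0.24 with a library left out. miR-125b-5p turned to -0.21 for the difference of the changes and -0.095 between the deficient genotypes with upper-quartile scaling and to -0.024 between these genotypes with no filter, with ranges of -0.12 to 0.37 and -0.16 to 0.27 with a library left out. Between the wild types, miR-34a-5p turned to -0.013 with DESeq2 size factors, -0.11 with no filter, -0.007 with 10 CPM in 4 libraries and -0.012 with DESeq2, miR-17-5p to 0.085 with upper-quartile scaling, 0.006 with total counts alone and 0.021 with voom, and miR-125b-5p to 0.12 with upper-quartile scaling, 0.026 with total counts alone, 0.035 with voom, 0.046 on deposited values and 0.027 with the depth covariate. Their ranges with a library left out were -0.37 to 0.78, -0.22 to 0.20 and -0.22 to 0.050.

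All microRNAs called ranged from 5 to 18 in the Xbp1 line, against 6, from 4 to 30 in the compound line, against 15, from 3 to 32 between the deficient genotypes, against 19, from 0 to 3 for the difference, from 0 to 14 between the wild types and from 17 to 33 averaged over lines, against 19. With a library left out they ranged from 2 (without Xbp1-line wild-type replicate 6) to 9 in the Xbp1 line and from 5 (without compound-deficient replicate 3) to 23 (without wild-type replicate 4) in the compound line. Between the deficient genotypes they were 0 without Xbp1-deficient replicate 1 or 2, 1 without compound-deficient replicate 2 or 3, 7 without compound-deficient replicate 4, 9 without Xbp1-deficient replicate 3 and at most 21. Low counts limit miR-96-5p.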
